A study of Homo sapiens with 9 samples.

Results

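The RNA of 10 genes that set the pace of the G1 phase was followed in Huh7, a human liver cancer cell line: the CDK inhibitors CDKN1A, CDKN1B, CDKN2A, CDKN2B, CDKN2C and CDKN2D, the D-type cyclins CCND1 and CCND3, and the E-type cyclins CCNE1 and CCNE2. They form a set defined by symbol and family, picked with earlier results of these data known, and all 10 were found among the 27800 gene symbols of the authors' table. The 9 libraries form 3 groups of 3 libraries of total RNA: cells treated for 48 h with 5 uM FIDAS-5, an inhibitor of the methionine adenosyltransferase MAT2A, cells treated for 48 h with 0.5 uM JQ1, an inhibitor of the BET bromodomain proteins, and cells given vehicle. All cells grew in DMEM with 10% FBS, and each compound was given at a single dose. Huh7 is a single tumour line. Whether the 3 libraries per group are separate cultures is not labelled; p-values here reflect library-to-library spread alone, and this may be technical.

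Progress through G1 is driven by cyclin D bound to CDK4 or CDK6 and then by cyclin E bound to CDK2. Both complexes phosphorylate the retinoblastoma protein RB1 and so release the E2F factors that drive the genes of DNA synthesis. The INK4 inhibitors (CDKN2A to CDKN2D) bind CDK4 and CDK6, whereas the CIP/KIP inhibitors (CDKN1A and CDKN1B) act mainly on CDK2 complexes. CDKN2B is a classical target of TGF-beta signalling. CDKN2A also encodes another protein, ARF, from an upstream first exon. The table gives 1 value per gene symbol, so the transcripts for p16INK4a and ARF cannot be told apart in it.

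The start regions of 4 genes are shown 5′ to 3′: CDKN1A and CDKN2B, the 2 that rose with FIDAS-5, CDKN2A, the neighbour of CDKN2B that did not move with it, and CCNE1, which fell with each compound. Each covers 250 bases before and 50 bases after an annotated start, from RefSeq on build GRCh38.p14. CDKN1A lies on the plus strand of chromosome 6 (window chr6:36678464-36678763), CDKN2B and CDKN2A side by side on the minus strand of chromosome 9 (windows chr9:22009256-22009555, chr9:21995275-21995574 for the ARF start and chr9:21974808-21975107 for the p16INK4a start), and CCNE1 on the plus strand of chromosome 19 (window chr19:29811741-29812040). Capitals mark the GC box GGGCGG, to which SP1 family factors bind, on either strand (CCGCCC on the other strand).
CDKN1A: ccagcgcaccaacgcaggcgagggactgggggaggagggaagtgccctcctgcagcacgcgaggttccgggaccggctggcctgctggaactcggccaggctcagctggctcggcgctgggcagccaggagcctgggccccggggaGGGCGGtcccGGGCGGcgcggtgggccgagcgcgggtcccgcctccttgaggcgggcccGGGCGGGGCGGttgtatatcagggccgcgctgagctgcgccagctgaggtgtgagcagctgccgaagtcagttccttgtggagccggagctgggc
CDKN2B: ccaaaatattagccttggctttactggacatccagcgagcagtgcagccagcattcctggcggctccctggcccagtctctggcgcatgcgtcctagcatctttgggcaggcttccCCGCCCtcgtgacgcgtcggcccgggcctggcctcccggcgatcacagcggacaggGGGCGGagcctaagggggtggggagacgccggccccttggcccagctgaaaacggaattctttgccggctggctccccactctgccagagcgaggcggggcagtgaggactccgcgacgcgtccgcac
CDKN2A, ARF start: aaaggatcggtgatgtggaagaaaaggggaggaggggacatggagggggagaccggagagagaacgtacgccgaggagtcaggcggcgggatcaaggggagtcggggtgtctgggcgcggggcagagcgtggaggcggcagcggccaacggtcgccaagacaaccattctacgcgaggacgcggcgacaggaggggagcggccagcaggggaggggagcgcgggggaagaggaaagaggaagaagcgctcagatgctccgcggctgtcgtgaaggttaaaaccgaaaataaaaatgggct
CDKN2A, p16INK4a start: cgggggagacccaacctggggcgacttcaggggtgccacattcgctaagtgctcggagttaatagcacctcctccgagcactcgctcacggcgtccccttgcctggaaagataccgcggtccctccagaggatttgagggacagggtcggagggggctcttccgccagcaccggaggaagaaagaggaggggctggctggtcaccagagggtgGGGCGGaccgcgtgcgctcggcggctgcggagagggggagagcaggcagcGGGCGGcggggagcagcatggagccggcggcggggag
CCNE1: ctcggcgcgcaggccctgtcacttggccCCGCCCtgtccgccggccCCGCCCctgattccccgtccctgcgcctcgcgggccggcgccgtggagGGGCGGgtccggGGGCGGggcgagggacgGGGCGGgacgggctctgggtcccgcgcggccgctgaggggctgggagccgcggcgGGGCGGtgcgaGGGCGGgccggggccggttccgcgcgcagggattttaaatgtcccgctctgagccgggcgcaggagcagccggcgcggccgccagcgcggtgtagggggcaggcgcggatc
The GC box occurred 4 times in the CDKN1A window, 2 times in that of CDKN2B, 7 times in that of CCNE1 and 2 times at the p16INK4a start, and these letters were not found in the window of the ARF start. Windows of CCND1 and CCNE2 were left out of the search. Of the 13 windows of the other 8 genes, 10 held a GC box, against 45.0% of all 35116 windows of the same length. The E-box CACGTG, bound by MYC and related factors, was found in 2 of the 13 windows, both of CDKN2C, against 7.26% of all windows.

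Per-library totals and similarity set the scale of what follows. TPM, the share of transcripts on a scale that sums to 1000000 per library, is normalised for transcript length and keeps no read counts, so depth and counting error are unknown. Between 27.7 and 34.1% of the TPM of a library fell on protein-coding genes, and 12229 to 13014 symbols reached 1 TPM. FIDAS-5 replicate 3 and JQ1 replicate 3 departed together from their group means across genes (correlation 0.422), as did, less closely, replicates 1 of these groups (0.26). Replicates 2 hardly did (0.102). With the compounds, the departures followed transcript GC content upwards in replicate 3 (Spearman 0.555 with FIDAS-5 and 0.641 with JQ1). They followed it downwards in replicate 1 (-0.506 and -0.654) and replicate 2 (-0.209 and -0.341). Vehicle replicates 1, 2 and 3 stood at 0.385, -0.273 and -0.139, so replicates 1 and 3 there went opposite to the same-numbered treated libraries. These values are across genes, which are not independent replicates. All 9 hepatocyte markers were above 1 TPM in every library. They summed to 3904.3 to 6008.9 TPM with FIDAS-5, 9384.5 to 14269 TPM with JQ1 and 4870.5 to 5877.8 TPM with vehicle. With JQ1 7 were called higher and 1 lower, against 19.0% and 19.4% of all tested genes. With FIDAS-5 2 were called higher and 0 lower, against 12.6% and 7.60%. Markers of other cell types moved too. The summed leukocyte markers, 4 of 7 of which were tested, ranged from 253 to 312 TPM with FIDAS-5, 19.2 to 28.1 TPM with JQ1 and 115 to 141 TPM with vehicle, mostly LYZ, while MS4A1 was at 0 in every library. The fibroblast and endothelial list summed to 16.8 to 18.4 TPM with FIDAS-5, 2.78 to 3.30 TPM with JQ1 and 8.51 to 11.1 TPM with vehicle, with CDH5 at 0 throughout. PECAM1 made up most of the FIDAS-5 and vehicle sums. The cholangiocyte list summed to 16.3 to 28.6 TPM with FIDAS-5, 29 to 43.3 TPM with JQ1 and 20.0 to 27.1 TPM with vehicle, mostly SOX9, with KRT7 at 0. Markers within a list did not all move alike. In all JQ1 libraries PECAM1 and MUC1 were below, and COL1A2 and KRT19 above, all vehicle libraries. The part of these in the results was not tested.

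In vehicle-treated cells the D cyclin CCND1 was the most abundant of the 10, at 46.9 ± 2.16 TPM (SD, n = 3), followed by CDKN2A at 24.8 ± 2.87, CDKN1A at 17.8 ± 1.5, CDKN1B at 12.9 ± 1.57, CDKN2C at 10.9 ± 2.37, CCNE1 at 5.07 ± 0.607, CCND3 at 2.48 ± 0.367, CDKN2B at 2.20 ± 0.101, CCNE2 at 1.12 ± 0.0883 and CDKN2D at 0.766 ± 0.303 TPM. The ranges of CDKN1B and CDKN2C, of CCND3 and CDKN2B, and of CCNE2 and CDKN2D overlapped, and the other neighbours in that order were separate. Each compound gave another order. With FIDAS-5 CDKN1A stood first, above CCND1, and CDKN2B stood above CDKN1B. With JQ1 CCND1 was still first by its mean, but its range overlapped that of CDKN1B, which in turn overlapped that of CDKN1A. CCND2, the remaining D cyclin, stayed at or below 0.0560 TPM in every library and CDKN1C, the remaining CIP/KIP inhibitor, below 1 TPM, and neither was tested.

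**Figure D1:**
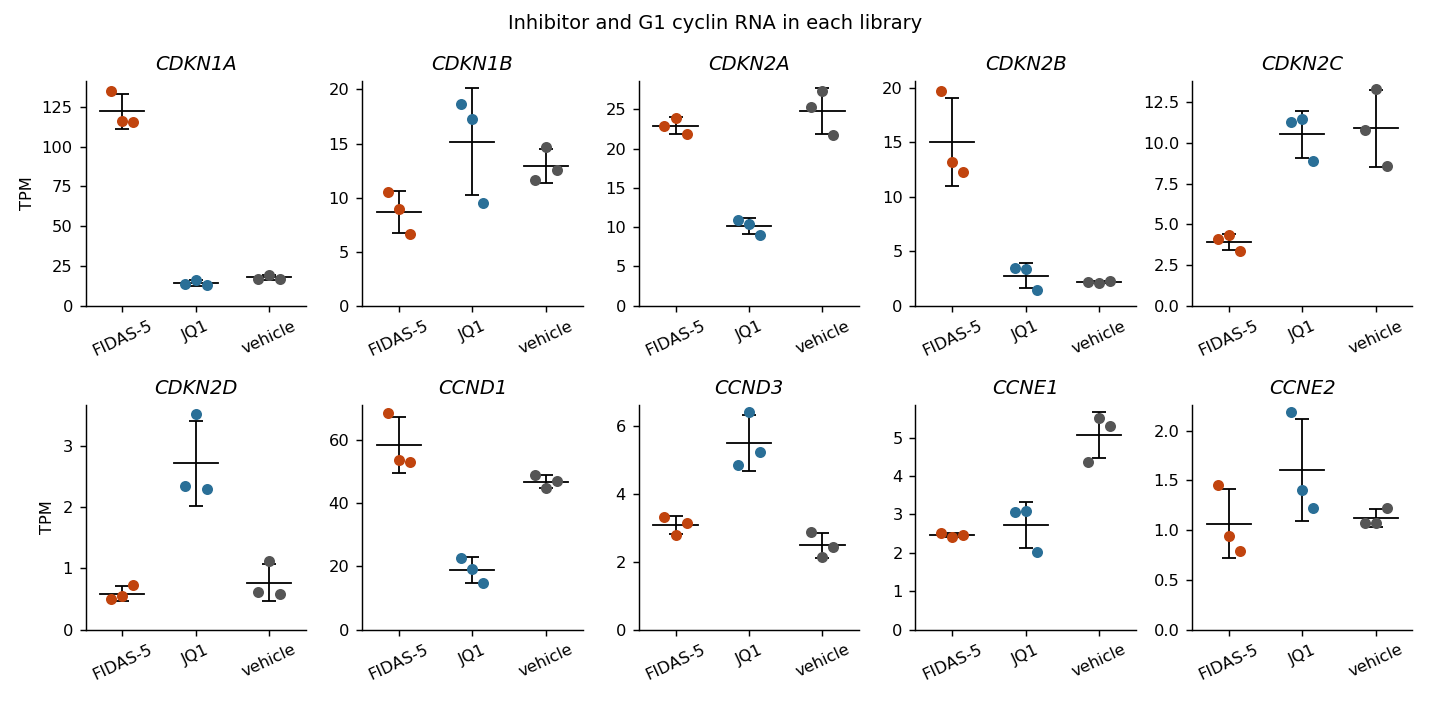
TPM of each gene (vertical axis, from 0, its own scale per panel) in the 3 libraries of each group (points), with the mean (long line) and SD (bars). CDKN1A and CDKN2B are high in the FIDAS-5 libraries, CDKN2A and CCND1 low and CDKN2D and CCND3 high in the JQ1 libraries, and CCNE1 is lower in both than in vehicle.

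Which of these regulators changed with the MAT2A inhibitor was read from FIDAS-5 against vehicle. The inhibitors CDKN1A and CDKN2B rose strongly, the inhibitor CDKN2C and the cyclin CCNE1 fell, and the other 6 genes did not pass the test. Thus 4 of 10 were called, 2 in each direction, by limma at a Benjamini-Hochberg adjusted p under 0.05 over all 13573 tested genes, of which 20.2% were called in this comparison. Libraries of the 2 groups did not overlap for 6 of the 10 genes, against 39.3% of all tested genes. The median log2 fold change of the 10 was -0.08, and that of all tested genes -0.02.

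CDKN1A (p21), which blocks CDK2 complexes, was at 135, 116 and 116 TPM with FIDAS-5, against 16.9, 19.6 and 17 TPM with vehicle. All FIDAS-5 libraries lay far above all vehicle libraries. The means were 122 ± 11.1 and 17.8 ± 1.5 TPM (SD, n = 3 each), a ratio of 6.86, and the log2 fold change on the log2(TPM + 1) scale was 2.71 (SE 0.14, limma adjusted p = 1.1e-05). It was the largest change among the 10 genes in this comparison. Of the exonic bases of CDKN1A, 4.79% lie opposite an antisense gene (DINOL) in GENCODE 29, and whether the counting used strand is not given in the sources used here.

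CDKN2B (p15), an INK4 inhibitor of CDK4 and CDK6, was at 19.7, 13.2 and 12.3 TPM with FIDAS-5, against 2.19, 2.10 and 2.31 TPM with vehicle. The groups did not overlap, and the vehicle libraries were closely alike. Its mean was 6.84 times that of vehicle, with a log2 fold change of 2.30 (SE 0.26, limma adjusted p = 5.1e-04); the pseudocount of 1 TPM makes this smaller than the ratio of the means. Only 1.95% of its 31-base words occur in transcripts of other genes, nearly all of them in CDKN2A.

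The neighbour CDKN2A did not follow. It was at 22.9, 23.9 and 21.8 TPM with FIDAS-5 and at 25.3, 27.3 and 21.7 TPM with vehicle, so the groups overlapped (log2 fold change -0.10, 95% interval -0.40 to 0.19, limma adjusted p = 0.62). The antisense RNA of the locus, CDKN2B-AS1, was at 3.70, 3.69 and 2.44 TPM with FIDAS-5 and at 1.59, 2.18 and 2.11 TPM with vehicle. Its FIDAS-5 libraries were all higher, but the difference was not called (log2 fold change 0.52, limma adjusted p = 0.052). It was called higher without FIDAS-5 replicate 3 (adjusted p = 0.032) or JQ1 replicate 3 (0.047), with median-of-ratios scaling (0.022), quantile normalization (0.030) and the GC trend removed (0.0059). MTAP, the next gene on that arm, had a log2 fold change of -0.10 (limma adjusted p = 0.80).

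CDKN2C (p18), another INK4 inhibitor, fell to 4.08, 4.33 and 3.37 TPM with FIDAS-5, against 10.8, 13.3 and 8.57 TPM with vehicle. No library of the groups overlapped, and the log2 fold change was -1.26 (SE 0.18, limma adjusted p = 0.0016). CDKN2D (p19), the scarcest INK4 gene, was at 0.491, 0.542 and 0.724 TPM with FIDAS-5 and at 0.609, 1.12 and 0.575 TPM with vehicle, with overlapping groups (log2 fold change -0.15, 95% interval -0.54 to 0.25). Changes of opposite direction therefore stood within a single inhibitor family.

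CDKN1B (p27), which restrains cyclin E with CDK2, was at 10.5, 8.90 and 6.59 TPM with FIDAS-5, against 11.6, 14.7 and 12.6 TPM with vehicle. All FIDAS-5 libraries were lower, but the difference was not called (log2 fold change -0.55, 95% interval -1.12 to 0.03, limma adjusted p = 0.17). Quantile normalization called it lower (adjusted p = 0.035), as did removal of the GC trend (adjusted p = 0.033).

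Among the cyclins, CCNE1, the activating partner of CDK2 at the start of S phase, fell to 2.51, 2.41 and 2.45 TPM with FIDAS-5, against 4.37, 5.51 and 5.31 TPM with vehicle. The FIDAS-5 values were nearly equal and all below vehicle (log2 fold change -0.81, SE 0.15, limma adjusted p = 0.0061). CCNE2 was at 1.46, 0.943 and 0.793 TPM with FIDAS-5 and at 1.07, 1.07 and 1.22 TPM with vehicle, without a consistent direction (95% interval of the log2 fold change -0.45 to 0.34). Its level is uncertain, because 37.1% of its exonic bases lie opposite other genes, mainly INTS8. CCND1 was at 68.6, 53.8 and 53 TPM with FIDAS-5 and at 49.1, 44.7 and 46.9 TPM with vehicle, all FIDAS-5 libraries above vehicle, but was not called (log2 fold change 0.30, 95% interval -0.09 to 0.70, limma adjusted p = 0.26). Median-of-ratios scaling called it higher (adjusted p = 0.037), and removal of the GC trend left a value of -0.0079. CCND3, the other D cyclin, was at 3.30, 2.79 and 3.13 TPM with FIDAS-5 and at 2.87, 2.14 and 2.42 TPM with vehicle, and was not called (log2 fold change 0.23, 95% interval -0.08 to 0.55).

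The comparison of JQ1 with vehicle asks the same of BET inhibition. CCND1, CDKN2A and CCNE1 fell, CCND3 and CDKN2D rose, and the other 5 genes did not pass the test. With 5 of 10 called, against 38.5% of all tested genes in this comparison, the share is near that background, so the direction and identity of the genes carry the description rather than their number. Libraries did not overlap for 6 of the 10, against 50.7% of all tested genes, and the medians were 0.07 for the 10 and -0.01 for all. Both comparisons use the same vehicle libraries.

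CCND1, the main D cyclin of these cells, fell to 22.7, 19.0 and 14.7 TPM with JQ1, against 49.1, 44.7 and 46.9 TPM with vehicle. Every JQ1 library lay below every vehicle library (means 18.8 ± 4.01 and 46.9 ± 2.16 TPM, ratio 0.402, log2 fold change -1.29, SE 0.17, limma adjusted p = 6.1e-04). Of its exonic bases 10.3% lie opposite the gene LTO1. CCND3 moved the other way, at 4.84, 6.40 and 5.21 TPM with JQ1, against 2.87, 2.14 and 2.42 TPM with vehicle, again without overlap (log2 fold change 0.90, SE 0.14, limma adjusted p = 0.0012). CCND3 accordingly made up 17.6, 25.2 and 26.1% of the summed D cyclin TPM with JQ1, against 5.52, 4.56 and 4.91% with vehicle, and 4.59, 4.93 and 5.58% with FIDAS-5.

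CDKN2A fell to 10.9, 10.4 and 8.98 TPM with JQ1, against 25.3, 27.3 and 21.7 TPM with vehicle. The groups were far apart relative to their spread (ratio of means 0.408, log2 fold change -1.21, SE 0.13, limma adjusted p = 2.0e-04). Of its exonic bases 7.88% lie opposite CDKN2B-AS1. CDKN2B was at 3.48, 3.37 and 1.42 TPM with JQ1 and at 2.19, 2.10 and 2.31 TPM with vehicle, with JQ1 replicate 3 below and the others above the vehicle libraries (log2 fold change 0.18, 95% interval -0.41 to 0.76). CDKN2B-AS1, at 1.31, 1.37 and 1.03 TPM with JQ1 and at 1.59, 2.18 and 2.11 TPM with vehicle, was lower in all JQ1 libraries but not called (limma adjusted p = 0.081), except with median-of-ratios scaling (0.048) or quantile normalization (0.046). Beside them, MTAP was called lower (log2 fold change -0.76, limma adjusted p = 0.029). That call did not hold when vehicle replicate 1 or 3 or JQ1 replicate 2 or 3 was left out (adjusted p = 0.064 to 0.080) or with no filter (0.052). DMRTA1, beyond CDKN2B-AS1, fell by 1.39 on the log2 scale (limma adjusted p = 1.7e-04).

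CDKN2D rose to 2.35, 3.52 and 2.29 TPM with JQ1, against 0.609, 1.12 and 0.575 TPM with vehicle. The ratio of the means was 3.55, while the log2 fold change was 1.07 (SE 0.17, limma adjusted p = 0.0016), since the pseudocount is larger than its vehicle level. It reached 1 TPM in 3 JQ1 libraries and 1 vehicle library and so passed the filter mainly through the group where it was high; with no filter it was called too (adjusted p = 0.0030). CDKN2C was at 11.3, 11.5 and 8.88 TPM with JQ1 and at 10.8, 13.3 and 8.57 TPM with vehicle, with overlapping groups (log2 fold change -0.03, 95% interval -0.43 to 0.37).

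CDKN1A was at 13.6, 16.3 and 12.9 TPM with JQ1, against 16.9, 19.6 and 17 TPM with vehicle. All JQ1 libraries were slightly lower, but the difference was not called (log2 fold change -0.31, 95% interval -0.62 to -0.0013, limma adjusted p = 0.10); with the GC trend removed it was called (log2 fold change -0.50, adjusted p = 0.011). CDKN1B was at 18.7, 17.3 and 9.50 TPM with JQ1 and at 11.6, 14.7 and 12.6 TPM with vehicle. JQ1 replicate 3 lay below the vehicle libraries and the others above, so no direction can be given (95% interval of the log2 fold change -0.41 to 0.74).

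CCNE1 fell to 3.06, 3.08 and 2.02 TPM with JQ1, against 4.37, 5.51 and 5.31 TPM with vehicle (log2 fold change -0.71, SE 0.15, limma adjusted p = 0.0057). It was the member called in the same direction with each compound against the shared vehicle. CCNE2 was at 2.19, 1.40 and 1.22 TPM with JQ1 and at 1.07, 1.07 and 1.22 TPM with vehicle, and was not called (log2 fold change 0.28, 95% interval -0.12 to 0.67, limma adjusted p = 0.24); with the GC trend removed it was called higher (log2 fold change 0.44, adjusted p = 0.017). CCNE2 took 41.7, 31.3 and 37.6% of the summed E cyclin TPM with JQ1, 36.7, 28.1 and 24.4% with FIDAS-5 and 19.7, 16.3 and 18.7% with vehicle.

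**Figure D2:**
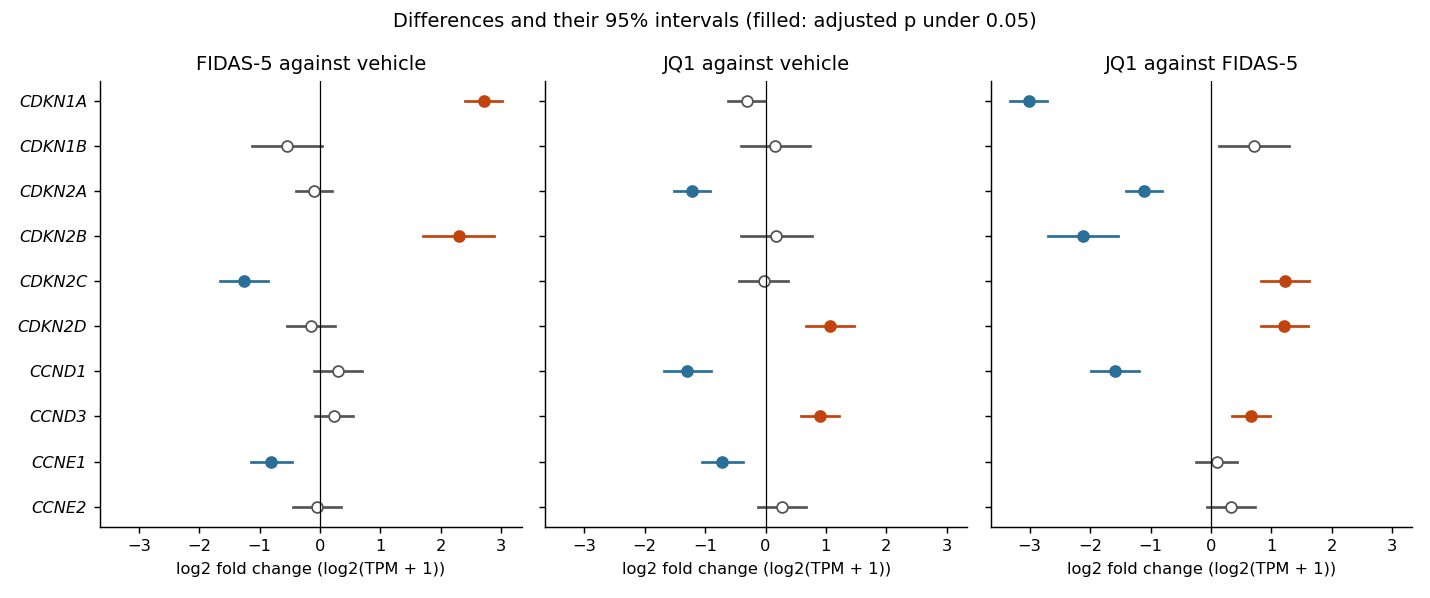
Log2 fold change on the log2(TPM + 1) scale (horizontal axis) of each gene with its 95% interval from limma, for FIDAS-5 against vehicle, JQ1 against vehicle and JQ1 against FIDAS-5. Filled red points were called higher and filled blue points lower, open points were not called; CCNE1 is blue in both comparisons with vehicle and open between the compounds.

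Set directly against each other, the compounds differed in 7 of the 10 genes, 3 higher and 4 lower with JQ1. Of all tested genes 34.8% were called, 16.4% higher and 18.5% lower. Libraries did not overlap for 7 of the 10, against 47.6% of all tested genes. The compounds were given at different doses and are not analogs. CDKN1A was at 14.2 ± 1.79 TPM with JQ1 and 122 ± 11.1 TPM with FIDAS-5 (SD, n = 3 each; difference on the log2 scale -3.02, limma adjusted p = 1.3e-06), and CDKN2B had means of 2.76 ± 1.16 TPM (JQ1) and 15 ± 4.07 TPM (FIDAS-5), a log2 fold change of -2.12 (adjusted p = 3.2e-04). CCND1 and CDKN2A were also lower with JQ1, by log2 fold changes of -1.59 and -1.11. CDKN2C, CDKN2D and CCND3 were higher with JQ1, by 1.23, 1.22 and 0.67. CDKN2D reached 1 TPM in 0 FIDAS-5 libraries and 3 JQ1 libraries, so it passed the filter mainly through the JQ1 group. CDKN1B lay near the threshold, at 15.2 ± 4.95 TPM with JQ1 and 8.66 ± 1.95 TPM with FIDAS-5 (difference on the log2 scale 0.71, 95% interval 0.13 to 1.29, limma adjusted p = 0.058). CDKN1B was called with the replicate number as a block, fitted to all 9 libraries (adjusted p = 0.028). The labels give no pairing, and the correlation of replicates 2 (0.102) was below that of vehicle and FIDAS-5 replicates 2 (0.16). CDKN1B was also called with each of the 3 other scalings, with the GC trend removed and without JQ1 replicate 3 (adjusted p = 0.0020 to 0.028). CCNE1 was not called between the compounds (95% interval -0.25 to 0.43).

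The make-up of the INK4 family differed between the groups while its sum varied less. The summed TPM of the 4 genes was 47.2, 42.0 and 38.1 with FIDAS-5, 28.0, 28.7 and 21.6 with JQ1 and 38.9, 43.9 and 33.1 with vehicle, so the FIDAS-5 and vehicle sums overlapped and the JQ1 sums lay below both. CDKN2B supplied 41.8, 31.4 and 32.1% of that sum with FIDAS-5, 12.4, 11.7 and 6.57% with JQ1 and 5.63, 4.8 and 6.96% with vehicle. CDKN2A was the largest contributor in every FIDAS-5 and vehicle library, at 48.6 to 57.1% with FIDAS-5 and 62.3 to 65.4% with vehicle. With JQ1 CDKN2A contributed 36.1 to 41.7% and CDKN2C 39.9 to 41.2%. Among the CIP/KIP genes, CDKN1A held 92.8, 92.9 and 94.6% of the sum with CDKN1B with FIDAS-5, 42.1, 48.4 and 57.5% with JQ1 and 59.3, 57.1 and 57.5% with vehicle. These shares describe RNA levels and were not tested.

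**Figure D3:**
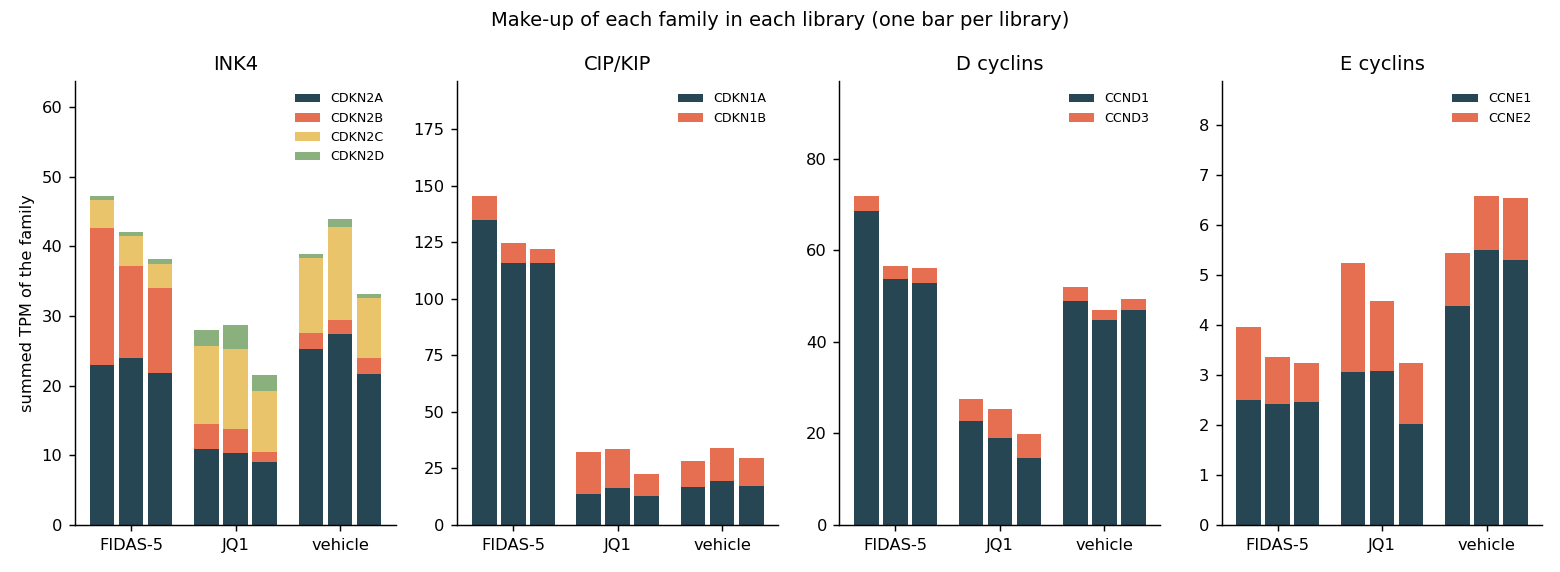
Summed TPM (vertical axis, from 0) of each inhibitor or cyclin family in each of the 9 libraries, 1 bar per library, coloured by gene. CDKN2B fills a large part of the INK4 bar with FIDAS-5, CDKN2C and CDKN2A share most of it with JQ1, and CCND3 is visible beside CCND1 mainly in the JQ1 libraries.

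Other genes of the G1 pathway were read from the same fit, from lists chosen with earlier results of these data known. In bulk RNA a smaller share of cells in S phase and less RNA per cell cannot be told apart. Of 15 S phase genes driven by E2F all 15 fell with FIDAS-5 (median log2 fold change -1.46), against 7.60% of all tested genes called lower. The count was 14 with no filter and when replicate 2 or 3 of the FIDAS-5 or vehicle group was left out, where CDC6 was not called (adjusted p = 0.052 to 0.088). With JQ1 12 fell and none rose (median -1.01), against 19.4% of all tested genes called lower. This count is less firm. CDT1 (limma adjusted p = 0.042) and TYMS (0.045) were not called in many alternatives, such as a pseudocount of 0.1 (0.051 and 0.062). Without vehicle replicate 3 CDT1 (0.14), TYMS (0.079) and MCM6 (0.051) were not called. RRM2 was called lower only with median-of-ratios scaling (0.031) and rescaling to protein-coding genes (0.045). The helicase subunit MCM7 fell by 1.65 with FIDAS-5 and by 1.05 with JQ1 on the log2 scale. PCNA, the sliding clamp, fell by 1.48 with FIDAS-5 and had a value of -0.29 with JQ1 (limma adjusted p = 0.46), and the thymidine kinase TK1 fell by 1.18 with FIDAS-5 and had a value of 0.11 with JQ1 (adjusted p = 0.50). ORC1, of the origin recognition complex, and MCM3 fell more by their point values with JQ1 (1.52 and 1.38) than with FIDAS-5 (0.87 and 0.91), both against the same vehicle libraries.

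Of 8 G1 kinases and activators 3 fell with FIDAS-5, against 7.60% of all tested genes, and 4 with JQ1, against 19.4%. None rose, but the chaperone CDC37 was called higher with FIDAS-5 without vehicle replicate 2, with no filter and with rescaling to protein-coding genes (adjusted p = 0.028 to 0.045). CDK2 was at 21.2 ± 2.16 TPM with FIDAS-5, 26.3 ± 3.81 TPM with JQ1 and 48.5 ± 3.89 TPM with vehicle, with log2 fold changes against vehicle of -1.16 with FIDAS-5 (limma adjusted p = 9.4e-04) and -0.87 with JQ1 (0.0019). CDK4 fell by 0.78 with FIDAS-5 and by 0.73 with JQ1, and CDC25A, the phosphatase that activates CDK2, by 0.90 with FIDAS-5 and by 1.36 with JQ1. CDK6 was not called, with log2 fold changes of -0.04 with FIDAS-5 (limma adjusted p = 0.95) and -0.75 with JQ1 (0.10). It was called lower with JQ1 under the replicate block (0.045), the 3 other scalings and GC correction (0.019 to 0.037).

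Of 13 pocket protein and E2F genes 5 fell and none rose with FIDAS-5, against 7.60% of all tested genes called lower. The call of E2F5 (limma adjusted p = 0.036) was lost without any 1 vehicle replicate or FIDAS-5 replicate 2 or 3 (0.056 to 0.13). It was also lost with a pseudocount of 0.1 (0.052), with no filter (0.072) and without JQ1 replicate 2 (0.0503). In some other alternatives E2F1, E2F4 or TFDP1 was called lower with FIDAS-5. With JQ1 6 fell, against 19.4%, and 1, the E2F partner TFDP2, rose by 0.69. E2F2 fell by 0.98 with FIDAS-5 and by 1.30 with JQ1, and E2F8, a repressor that acts late in S phase, by 1.36 with FIDAS-5 and by 0.90 with JQ1. RB1 itself had log2 fold changes of -0.17 with FIDAS-5 (limma adjusted p = 0.79) and 0.16 with JQ1 (0.76), while RBL1 (p107) fell by 1.17 with FIDAS-5 and by 0.70 with JQ1; the JQ1 call was lost without vehicle replicate 2 or 3 (adjusted p = 0.052 and 0.054). The number lower with JQ1 was 3 without vehicle replicate 2 or 3. Of 5 later cyclin and kinase genes 4 fell with FIDAS-5 and 3 with JQ1, against the same 7.60% and 19.4%, among them CCNA2, which follows cyclin E on CDK2, by 1.61 with FIDAS-5 and by 1.67 with JQ1. The mitotic cyclin CCNB1 fell by 0.93 with FIDAS-5 and by 1.14 with JQ1, and CCNB2 by 1.17 with FIDAS-5 and by 1.08 with JQ1. Without vehicle replicate 1, 1 of the 5 was called higher with JQ1.

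Genes that turn over the cyclins and inhibitors included SKP2, the substrate receptor that marks p27 for degradation. It fell to 55.7 ± 9.39 TPM with FIDAS-5, against 155 ± 36.5 TPM with vehicle (log2 fold change -1.45, limma adjusted p = 0.0060). With JQ1 it was at 143 ± 43.8 TPM (log2 fold change -0.15, adjusted p = 0.70). Its cofactor CKS1B fell by 0.90 with FIDAS-5 and by 0.87 with JQ1, and DTL, which marks CDT1 and p21, by 1.62 with FIDAS-5 and by 1.16 with JQ1. Of the 14 genes 4 fell and none rose with FIDAS-5, against 7.60% lower and 12.6% higher among all tested genes. With JQ1 2 fell and 3 rose, or 1 rose without JQ1 replicate 2, shares near the 19.4% lower and 19.0% higher of all tested genes. The FIDAS-5 call of USP28 (limma adjusted p = 0.028) was lost without vehicle replicate 2 or 3 or any FIDAS-5 replicate (0.055 to 0.11). With FIDAS-5, RBX1 was called lower under quantile normalization (0.027) and CKS2 without JQ1 replicate 3 (0.049). FBXW7 was called higher with FIDAS-5 after GC correction (0.030). CDKN3, a phosphatase of CDK2 that shares the symbol but not the fold of the inhibitors, fell by 1.09 with FIDAS-5 (limma adjusted p = 0.013, and 0.054 without FIDAS-5 replicate 3).

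Of 20 transcription factors known to act on the 10 genes 3 rose and 1 fell with FIDAS-5, against 12.6% and 7.60% of all tested genes. With JQ1 7 rose and 2 fell, against 19.0% and 19.4%. These counts moved when 1 library was left out: with FIDAS-5 1 rose without FIDAS-5 replicate 1 or 3, 0 fell without vehicle replicate 3 or FIDAS-5 replicate 2 or 3, and 2 fell without vehicle replicate 2 or JQ1 replicate 3. With JQ1 4 rose without vehicle replicate 3 or JQ1 replicate 1 or 2, and 1 fell when any of vehicle replicates 1 and 3 and JQ1 replicates 1 and 2 was left out. Without JQ1 replicate 3, MXD1, SP3 and SMAD4 were also called higher with JQ1 (limma adjusted p = 0.0037, 0.035 and 0.041). KLF4, an activator of CDKN1A, was at 7.94, 3.83 and 4.92 TPM with FIDAS-5, against 0.722, 0.356 and 0.528 TPM with vehicle. It is 1 of the 3 counted as higher with FIDAS-5, but it passed the filter through the FIDAS-5 libraries alone, so no test of it is given. With a FIDAS-5 library left out KLF4 missed the filter, so the lower counts there partly reflect its absence. FOXO4, also counted as higher, was not called without FIDAS-5 replicate 1 (limma adjusted p = 0.079) or 3 (0.087). MXD4, a MAX partner that opposes MYC, rose by 1.65 with FIDAS-5 and by 1.95 with JQ1. SMAD3, which carries TGF-beta signals, rose by 1.03 with JQ1 (adjusted p = 0.0012) and had a value of 0.38 with FIDAS-5 (adjusted p = 0.12, and 0.049 with median-of-ratios scaling). CEBPA, a hepatocyte factor, rose by 0.94 with JQ1, and CEBPB fell by 0.49.

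Among 13 tested polycomb genes and repressors of the INK4 locus 2 fell with FIDAS-5, EZH2 by 1.61 and CBX2 by 0.87, against 7.60% of all tested genes. With JQ1 3 fell and 3 rose, near the shares of 19.4% and 19.0% over all tested genes. EZH2, the polycomb methyltransferase, fell by 0.82 (adjusted p = 0.033) and CBX2 by 0.89. Leaving out vehicle replicate 2 or 3, FIDAS-5 replicate 2 or JQ1 replicate 3 ended the EZH2 call (0.052 to 0.10), as did no filter and a fit of the 6 libraries alone (0.063 and 0.059). These JQ1 counts dropped when 1 library was left out: 1 rose in the absence of vehicle replicate 3 or JQ1 replicate 1, and 1 fell in the absence of vehicle replicate 2, vehicle replicate 3 or JQ1 replicate 3.

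**Figure D4:**
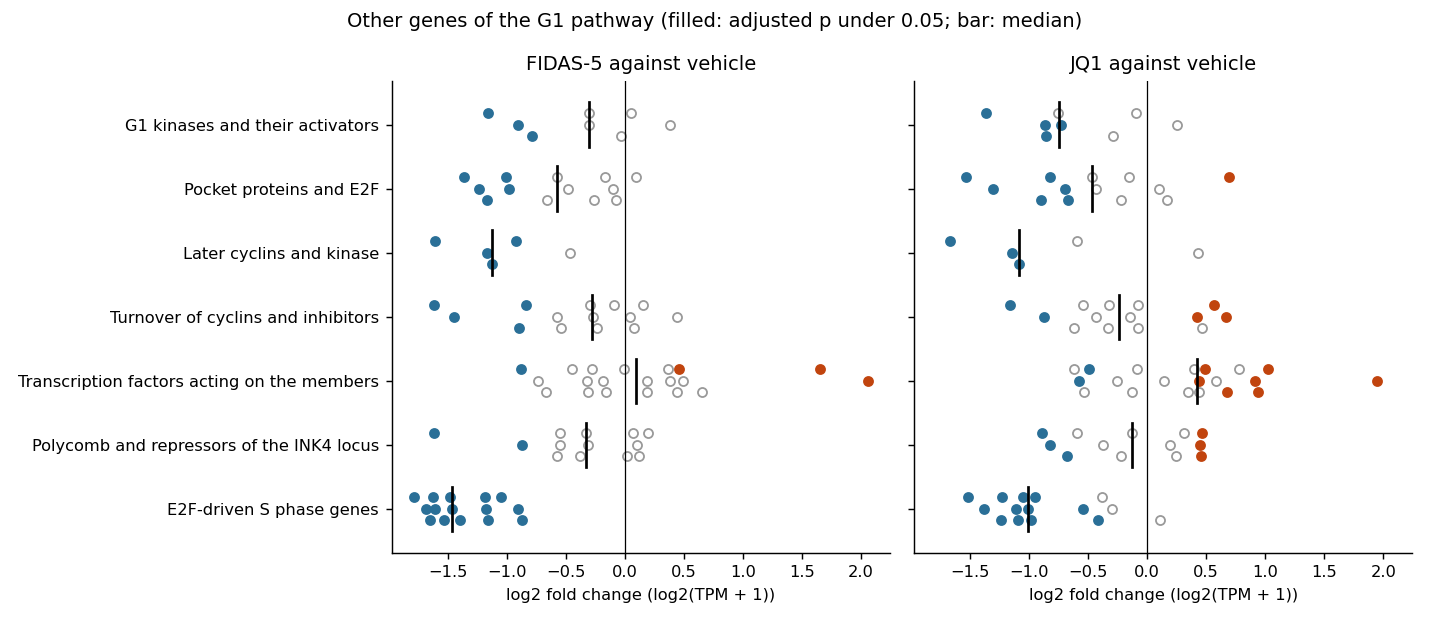
Log2 fold change on the log2(TPM + 1) scale (horizontal axis) of each tested gene of 7 pathway lists, with FIDAS-5 (left) or JQ1 (right) against vehicle. Filled points were called (red higher, blue lower), open points were not, and the black bar is the list's median; the S phase genes lie at the left in both panels, all 15 called with FIDAS-5 and 12 with JQ1.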

How the data were processed

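Total RNA of 9 libraries was analysed. The authors deposited TPM per gene symbol, made with Salmon against hg38, per the submitters' processing notes; the Salmon version, annotation and strand setting are not given in the sources used here. Each column sums to 1000000 within 1.22 TPM, and no libraries were identical.

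TPM were transformed to log2(TPM + 1), and symbols with at least 1 TPM in at least 3 libraries were kept (13573). limma 3.58.1 in R 4.3.3 fitted a mean per group to all 9 libraries (6 residual and 2.86 prior degrees of freedom), two-sided, with Benjamini-Hochberg adjustment over all tested symbols and calls under 0.05. Departures of same-numbered libraries from their group means correlated at 0.26, 0.102 and 0.422 between FIDAS-5 and JQ1, and at -0.076 to 0.16 with vehicle. These ranges overlap and the labels give no pairing, so the replicate block, fitted to all 9 libraries, served only as an alternative. Words of 31 bases and exon overlaps came from GENCODE 29. Figures used matplotlib 3.10.9.

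The 10 genes and the lists were chosen with earlier results of these data known. Named were the 10 genes, CCND2, CDKN1C, MTAP and CDKN2B-AS1 always, up to 4 genes per list and compound by smallest adjusted p, and list genes needed to describe a list. For the 3 genes with the largest called change, the 3 genes most alike were named: candidates reached 5 TPM on average in their highest group, and likeness was the largest difference over the 9 libraries of log2(TPM + 1) taken from its vehicle mean. Promoters were also searched for exact E2F words of 8 bases, and 0 of the 13 windows held any, against 3.31% of all 35116 windows. With so low a share, 0 of 13 says nothing about these genes.

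Alternatives were a pseudocount of 0.1, no filter, a 5 TPM filter, median-of-ratios and quantile scaling, rescaling to protein-coding genes, the 6 libraries compared alone, the replicate number as a block, a variance trend, each library left out and both replicates 3 of the treated groups left out. Removing a lowess trend on transcript GC content was added after the data were seen. Some genes and a list covered by these rules are not reported here.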

Additional observations from a re-analysis of the deposited data

How the results depend on the processing

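Calls of the 10 genes kept their direction and side of the threshold in every alternative that tested them, for all 4 calls with FIDAS-5, 5 with JQ1 and 7 between the compounds. The 5 TPM filter tested only 6 of the 10 genes and so called 2 with JQ1 against vehicle, and it called 2991 genes in all between the compounds, against 4726. Leaving out each library gave 1461 to 3304 called genes with FIDAS-5, against 2742, and 4 called members each time (1634 without vehicle replicate 3, 1461 without FIDAS-5 replicate 3). Removal of the GC trend gave 4389. Of the calls with FIDAS-5, 1711 were higher and 1031 lower, against 1904 and 1756 with quantile normalization. The causes were not tested.

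Some values that were not called changed sign. With FIDAS-5, the GC correction gave CCND1 -0.0079, CCND3 -0.0024 and CCNE2 0.19, and CCNE2 ranged from -0.18 to 0.042 over the libraries left out (0.042 without FIDAS-5 replicate 3, alone or with JQ1 replicate 3). With JQ1, CDKN1B ranged from -0.0032 without JQ1 replicate 1 to 0.45, and CDKN2C from -0.18 to 0.11, with 0.11 without vehicle replicate 2 and 0.08 without JQ1 replicate 3, alone or with FIDAS-5 replicate 3.

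Departures of same-numbered libraries correlated at -0.076 to 0.16 between either compound and vehicle. Between the compounds they correlated at 0.26, 0.102 and 0.422 for replicates 1, 2 and 3, and the labels give no pairing. The replicate block gave 2891 called genes with FIDAS-5, 5544 with JQ1 and 5052 between the compounds, and 4, 5 and 8 called members. Of the 10 genes it changed no call but that of CDKN1B between the compounds.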

Other observations

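On the log2(TPM + 1) scale, other genes followed the 3 members of largest change closely across the 9 libraries. The pseudocount of 1 TPM shrinks the change of scarce genes, so likeness on this scale does not mean equal ratios of TPM. Nearest to CDKN1A was LIPH, a phospholipase, whose log2(TPM + 1) values, each taken from its vehicle mean, differed from those of CDKN1A by at most 0.28 in any library. LIPH was at 13.2 ± 2.17 TPM with FIDAS-5, 0.882 ± 0.104 TPM with JQ1 and 1.13 ± 0.180 TPM with vehicle (SD, n = 3). TAP1, a peptide transporter of antigen presentation, came next (at most 0.29), and then the peptide hormone receptor VIPR1 (at most 0.47). VIPR1 was at 8.59 ± 1.27 TPM with FIDAS-5 but at 0.161 ± 0.0382 TPM with JQ1 and 0.135 ± 0.0531 TPM with vehicle. Among those nearest to CDKN2B were the prostaglandin receptor PTGER4 (at most 0.39) and KLF4 (at most 0.52). KLF4 was at 5.57 ± 2.13 TPM with FIDAS-5, 0.447 ± 0.124 TPM with JQ1 and 0.536 ± 0.183 TPM with vehicle. Nearest to CCND1 was DUSP4, a phosphatase of the MAP kinases, at 6.50 ± 0.876 TPM with FIDAS-5, 1.58 ± 0.288 TPM with JQ1 and 5.07 ± 0.329 TPM with vehicle (at most 0.19), followed by SSR3 (at most 0.23) and SLC38A6 (at most 0.24). These genes were picked for likeness among all tested genes that met the level rule, so the likeness is a description and was not tested.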
